A study of Mus musculus with 24 samples.

Results

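The unfolded protein response and the integrated stress response were followed at the mRNA level in primary cortical astrocytes of C57BL/6J wildtype mouse embryos, isolated at E18.5, through 35 genes among the 49315 genes of each count table. The 35 genes were chosen by symbol, as targets of the transcription factor ATF4, chaperones of the endoplasmic reticulum (ER), and components of the IRE1 and PERK arms, and each symbol matched 1 row. Earlier results of these data were known when they were chosen. Cells of all embryos of one dam were pooled and used at passage 1. They were mock-irradiated (0 Gy) or exposed to 0.1 Gy or 2 Gy X-rays, and RNA was taken 6 h or 24 h later, which gave 6 groups with 4 libraries each. The study's methods call the 4 libraries of a group biological repeats, the labels do not say which libraries share a dam, and p-values measure the spread between these libraries. A culture of one layer of cells that grew from whole cortex can hold other brain cells, and the model has no neurons or vessels in their natural arrangement.

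ER stress is sensed by 3 proteins in the ER membrane. IRE1 (Ern1) cuts and so activates the mRNA of the transcription factor XBP1, PERK (Eif2ak3) phosphorylates the translation initiation factor eIF2α, and ATF6 is cleaved to an active transcription factor. Phosphorylated eIF2α lowers general translation and favours translation of ATF4, which turns on genes of amino acid supply, one-carbon metabolism and stress feedback. Other kinases that respond to lack of amino acids or to viral RNA end at the same point, hence the name integrated stress response, while XBP1 and ATF6 act mainly on chaperones and on the degradation of misfolded ER proteins. Astrocytes secrete many proteins and fold them in the ER. Counts per gene contain neither the spliced form of Xbp1 mRNA apart from the unspliced form nor the translation of Atf4 mRNA.

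To show the DNA that these factors are known to read, the 250 bases before the RefSeq start of 4 of the genes are given, from the windows of assembly GRCm38.p6, each on the strand of its gene. Capitals mark the fixed letters of 3 motifs, searched on both strands. These were the C/EBP-ATF response element bound by ATF4 (TGATGNAA), the ER stress response element (CCAAT, 9 bases of any kind, CCACG) and its second form (ATTGG, 1 base, CCACG). Chac1 (chr2:119350992-119351241, plus strand) and Asns (chr6:7693210-7693459, minus strand) are ATF4 targets with a TGATGNAA match, Herpud1 (chr8:94386179-94386428, plus strand) held this match and the second form of the ER stress response element, and Hspa5 (chr2:34771840-34772089, plus strand) encodes the main ER chaperone and held the first form.
Chac1: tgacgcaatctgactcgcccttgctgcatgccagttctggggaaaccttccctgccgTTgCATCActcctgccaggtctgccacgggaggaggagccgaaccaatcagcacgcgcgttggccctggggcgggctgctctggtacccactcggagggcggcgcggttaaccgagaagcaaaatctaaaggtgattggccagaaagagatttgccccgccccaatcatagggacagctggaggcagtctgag
Asns: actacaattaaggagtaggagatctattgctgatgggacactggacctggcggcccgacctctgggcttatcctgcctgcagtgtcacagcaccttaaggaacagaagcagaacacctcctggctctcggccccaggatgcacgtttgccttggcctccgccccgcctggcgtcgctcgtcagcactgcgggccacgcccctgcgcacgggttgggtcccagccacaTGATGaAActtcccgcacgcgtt
Herpud1: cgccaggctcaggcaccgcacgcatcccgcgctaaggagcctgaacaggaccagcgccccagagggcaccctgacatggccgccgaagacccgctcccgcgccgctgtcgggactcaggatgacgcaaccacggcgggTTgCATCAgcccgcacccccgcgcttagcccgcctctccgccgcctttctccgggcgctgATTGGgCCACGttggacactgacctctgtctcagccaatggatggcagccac
Hspa5: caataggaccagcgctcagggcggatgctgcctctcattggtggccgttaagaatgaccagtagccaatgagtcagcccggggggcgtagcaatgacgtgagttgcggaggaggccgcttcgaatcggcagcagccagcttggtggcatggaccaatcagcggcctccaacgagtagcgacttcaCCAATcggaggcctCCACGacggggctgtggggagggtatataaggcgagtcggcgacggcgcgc

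Of the 35 genes, 30 had a RefSeq window of 250 bases before to 50 bases after the start, and 2 of these had 2 windows. The ER stress response element was found in 7 of the 30 genes and in 0.119% of all 32851 windows. All 7 encode proteins of ER folding, namely Hspa5, Calr, Hsp90b1, Canx, Pdia6, Creld2 and Dnajc3, and the matches are given 5′ to 3′ on the strand that holds the motif.
Hspa5, chr2:34772025-34772043: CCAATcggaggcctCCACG
Calr, chr8:84847075-84847093: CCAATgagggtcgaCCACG
Hsp90b1, chr10:86705638-86705656: CCAATcgcaaggagCCACG
Hsp90b1, chr10:86705533-86705551: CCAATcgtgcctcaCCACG
Canx, chr11:50325800-50325818: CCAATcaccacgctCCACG
Pdia6, chr12:17266491-17266509: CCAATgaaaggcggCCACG
Dnajc3, chr14:118937827-118937845: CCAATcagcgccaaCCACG
Creld2, chr15:88819520-88819538: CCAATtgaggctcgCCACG
The second form occurred in 1 of the 30 genes, Herpud1, and in 0.0365% of all windows, and TGATGNAA in 5 of the 30 genes (Asns, Chac1, Herpud1, Nupr1 and Trib3) and in 3.97% of all windows. The cAMP response element TGACGTCA was found in 1 of the 30, Ppp1r15a, and in 1.79% of all windows, and the XBP1 element TGACGTGG in 0 of the 30 and in 0.676% of all windows. A match is a description of these letters and not a measured binding site, and a window without a match says nothing of the factor.

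Total counts ranged from 14742855 to 38194800 per library, and mitochondrial genes took 0.947% to 4.97% of them. Gm42418, a gene model that overlaps ribosomal RNA, took 0.470% to 5.75% of the counts in the 6 h and 0.364% to 10.4% in the 24 h libraries. Its share was highest in replicate 1 at 0 Gy and 24 h, followed by replicates 2 and 1 at 2 Gy and 24 h (7.30% and 7.12%). The labelled cell type had its defining markers, with 12 of 12 astrocyte markers above 0 in every library and their summed level between 2849 and 3976 CPM (counts scaled to the TMM-corrected library size, per 1000000), for example Gfap at 343 to 797 CPM. Of 12 neuronal markers, summed at 407 to 731 CPM, 6 had a mean under 1 CPM, among them the defining markers Rbfox3, Snap25 and Slc17a7 with at most 1.26 CPM in any library. Map2 (105 to 424 CPM), Stmn2 (181 to 322 CPM) and Tubb3 (35.1 to 123 CPM) were clearly present. Microglial markers were present in every library, and the 6 libraries numbered replicate 2 stood apart from the others, with a sum over 12 microglial markers of 249.5 to 316 CPM against 1656 to 3078 CPM in the other 18 libraries. At 24 h, the libraries numbered replicate 3 were the highest of their group at all 3 doses for 12 of the 35 genes and the lowest for 7, against at most 4 and 5 genes for any other replicate number. In such bulk samples, fewer cells of a type and less RNA per cell cannot be told apart. Results are therefore given with and without replicates 2 and 3, all libraries of that number at a time, and the part of the cell mixture in the results was not tested.

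All 35 genes passed the filter on low counts in every comparison. Levels were compared between genes as FPKM (CPM divided by the gene's length in kilobases, as given in the count table), as the mean over the 24 libraries. The ER chaperones led the list, with Calr at 336, Hsp90b1 at 201, Canx at 195 and Hspa5 at 180 FPKM. Atf4 mRNA was the sixth most abundant, at 102 FPKM, at percentile 97.8 among the 17353 genes that passed the filter over all libraries. The amino acid transporter subunit Slc3a2 stood at 64.9 FPKM and Atf5 at 54.7 FPKM. The sensors were scarce in comparison, with Eif2ak3 at 8.71, Atf6 at 8.26 and Ern1 at 3.39 FPKM, and the lowest members were Chac1 (3.02 FPKM) and Trib3 (1.45 FPKM), which encode a glutathione-degrading enzyme and a pseudokinase that restrains ATF4.

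Between 6 h and 24 h, the mRNAs of the transcription factors Atf4 and Xbp1 and of some targets of both pathways fell, in mock-irradiated and in irradiated astrocytes. Of 10 ER chaperones, 0 were called in the edgeR fit reported here. At 0, 0.1 and 2 Gy, 6.70%, 9.90% and 6.95% of all genes were called, so that 0 of 10 is close to that share. Hspa5, Creld2 and Manf were called under some other settings. The transcription factor mRNAs Atf4 and Xbp1, the ATF4 targets Chac1 and Mthfd2, and Herpud1, which serves ER-associated degradation, were lower at 24 h at all 3 doses, by 1.55-fold to 3.61-fold. A call means a p below 0.05 in the quasi-likelihood test of edgeR, after Benjamini-Hochberg adjustment across every gene tested. At 0 Gy, 7 of the 35 genes were called, all lower at 24 h, which is 20% of them, against 6.70% of all 15887 genes tested (3.46% lower). At 0.1 Gy, 7 genes were called, all lower, against 9.90% of all 16250 genes tested (5.33% lower). At 2 Gy, 6 genes were called lower and 1, Atf5, higher, against 6.95% of all 16002 genes tested (3.92% lower). In all, 10 genes were called at any dose and 25 at none. Among all genes called, 743 were higher and 866 lower at 0.1 Gy and 484 higher and 628 lower at 2 Gy, and with scaling by library size alone these were 1034 and 654, and 588 and 466. The median log2 fold change over the 35 genes was -0.28 at 0 Gy, -0.21 at 0.1 Gy and -0.29 at 2 Gy, beside -0.02, -0.01 and -0.00 over all genes tested, and 28, 29 and 30 of the 35 values were negative. The 3 comparisons share no library, but they are not independent repeats. Same-numbered libraries of 0 Gy and of each other dose deviated together, with correlations of 0.514 to 0.907 at 6 h and 0.535 to 0.859 at 24 h. Of the lists of other cell types, the 8 tested of 10 fibroblast and vessel markers had median log2 fold changes of -0.39, -0.31 and -0.42, the 12 microglial markers of -0.42, -0.14 and -0.10 and the 8 tested of 10 markers of the oligodendrocyte lineage of 0.00, -0.06 and -0.01, with 0 genes called. The summed fibroblast and vessel markers were at 4605 to 7831 CPM in the 6 h and 3520 to 6811 CPM in the 24 h libraries. Most of it came from Acta2, a smooth muscle actin, with a mean of 4442 CPM. Col1a1, Col1a2 and Pdgfrb were clearly present as well, with means of 455, 261 and 63.4 CPM, whereas Cldn5, Pecam1 and Lum had means under 1 CPM. The microglial markers summed to 283 to 3078 and 249.5 to 2698 CPM, and those of the oligodendrocyte lineage to 289.6 to 726.8 and 340.5 to 815.5 CPM. Of 7 neuronal markers tested, Gad1 was called lower at 0.1 and 2 Gy (-1.69 ± 0.29 and -1.56 ± 0.29, adjusted p = 0.0106 and 0.0188) and Syt1 higher at 0.1 Gy (0.88 ± 0.22, adjusted p = 0.0387), and of the astrocyte markers Sox9 was called higher at 0.1 and 2 Gy (0.81 ± 0.19 and 0.81 ± 0.20, adjusted p = 0.0311 and 0.0461). The part of these cells, and of the libraries with much Gm42418, in the fall of the 35 genes was not tested.

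**Figure D1:**
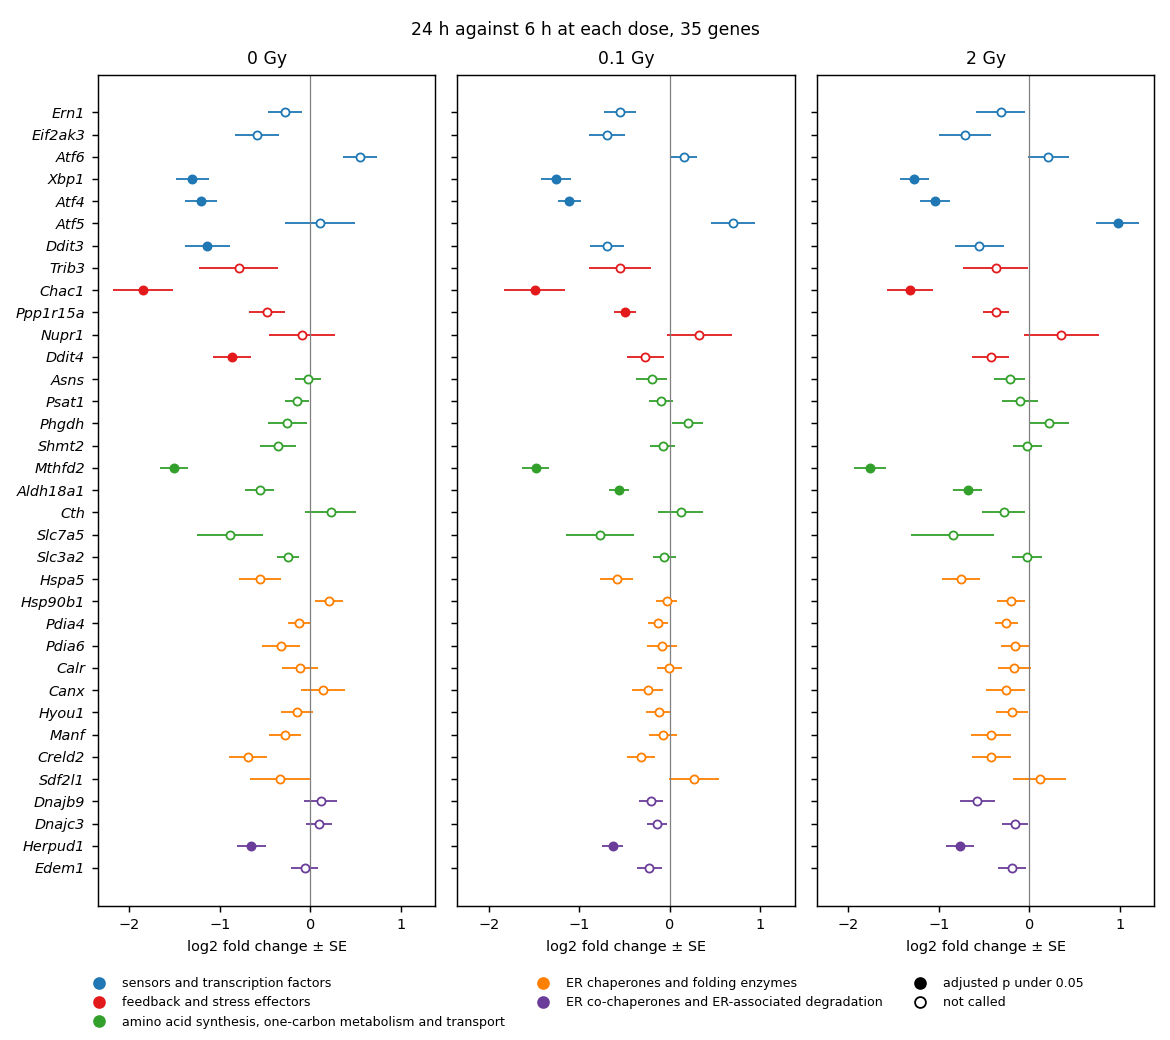
Log2 fold change of 24 h against 6 h for each of the 35 genes at 0, 0.1 and 2 Gy, with its standard error (SE) from edgeR on 4 against 4 libraries; colours give the role of the gene and filled points an adjusted p under 0.05. Xbp1, Atf4, Chac1, Mthfd2 and Herpud1 lie below 0 and are filled at all 3 doses, and no ER chaperone (orange) is filled.

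Atf4 (ENSMUSG00000042406, chr15:80255184-80257540, GRCm38) was measured at 6 h without irradiation at 271, 226, 244 and 231 CPM in replicates 1 to 4, and at 24 h at 90.7, 103, 146 and 86 CPM. After 0.1 Gy it was at 304, 229, 255 and 205 CPM at 6 h and at 112, 113, 124 and 116 CPM at 24 h, and after 2 Gy at 266, 203, 255 and 194 CPM and 109, 102, 138 and 99.5 CPM. Every library at 24 h was below every library at 6 h, at each dose. The log2 fold change was -1.21 ± 0.18 (SE, adjusted p = 0.00806) at 0 Gy, -1.11 ± 0.13 (adjusted p = 0.00297) at 0.1 Gy and -1.04 ± 0.16 (adjusted p = 0.00951) at 2 Gy. The call at each dose was kept under all 19 other settings tried, among them the fits without replicate 2 and without replicate 3.

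Xbp1 (ENSMUSG00000020484, chr11:5520659-5525893) stood at 108, 96.2, 148 and 162 CPM at 6 h and at 52.2, 44.9, 56.4 and 56.2 CPM at 24 h without irradiation. The values after 0.1 Gy were 120, 103, 152 and 131 CPM at 6 h and 55.9, 40.4, 53.7 and 64.8 CPM at 24 h, and those after 2 Gy were 114, 102, 150 and 142 CPM and 54.4, 43.3, 58.8 and 55.2 CPM. The times did not overlap at any dose, and the 3 groups of a time point had nearly the same mean, 128, 126 and 127 CPM at 6 h and 52.4, 53.7 and 52.9 CPM at 24 h. The log2 fold change of 24 h against 6 h was -1.31 ± 0.18 at 0 Gy, -1.26 ± 0.17 at 0.1 Gy and -1.27 ± 0.16 at 2 Gy, with adjusted p-values of 0.00676, 0.00449 and 0.00584. Without replicate 3, the adjusted p at 0.1 Gy was 0.0604, while the log2 fold change was -1.15 ± 0.19.

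The other sensors and transcription factors differed among themselves. Eif2ak3, encoding PERK, had log2 fold changes of -0.59 ± 0.24, -0.69 ± 0.20 and -0.71 ± 0.28 at 0, 0.1 and 2 Gy, with adjusted p-values of 0.173, 0.0618 and 0.17. Its level at 0.1 Gy was 57.9, 71.8, 67.4 and 62.2 CPM at 6 h and 43, 56.1, 30.5 and 33 CPM at 24 h, so the times did not overlap there, and each library at 24 h was below the library of the same replicate number at 6 h at 0.1 and 2 Gy. Ern1 had log2 fold changes between -0.55 and -0.28, none of them called. Atf6 was the only sensor with positive values at all doses, from 0.15 at 0.1 Gy to 0.55 ± 0.19 at 0 Gy (adjusted p = 0.117). Same-numbered libraries deviated together from their group means in the comparisons at 0.1 and 2 Gy, and with replicate number as a block Eif2ak3 was called at both doses (-0.73 ± 0.15, adjusted p = 0.00575, and -0.80 ± 0.21, adjusted p = 0.0304) and Ern1 at 0.1 Gy (-0.56 ± 0.14, adjusted p = 0.0152).

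Ddit3 (chr10:127290774-127296288) encodes CHOP, the transcription factor of prolonged ER stress. Its levels at 0 Gy were 22.8, 27.2, 22.9 and 36.6 CPM at 6 h and 8.43, 11, 15.5 and 15.3 CPM at 24 h, without overlap, a log2 fold change of -1.14 ± 0.25 (adjusted p = 0.0286). The call was kept under 13 of 19 other settings and in 2 of the 8 fits without a single library. At 0.1 Gy the times did not overlap either, and the log2 fold change was -0.69 ± 0.19 (adjusted p = 0.0522). At 2 Gy they did overlap, with 21.6, 24.7, 26.1 and 28.8 CPM at 6 h and 10.01, 14.4, 26.2 and 18.7 CPM at 24 h and a log2 fold change of -0.55 ± 0.27 (adjusted p = 0.256). Replicate 3 was the sole library of that group that did not lie below the 6 h values. With the replicate block, the adjusted p was 0.005 at 0.1 Gy and 0.0476 at 2 Gy. Ddit3 shares 68 exonic bases with Mars on the other strand, and since use of strand in counting is not stated, reads there cannot be assigned. Mars itself had a log2 fold change of -0.28 ± 0.15 at 0 Gy (adjusted p = 0.284).

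Atf5 (chr7:44812256-44816658), a paralogue of Atf4 that is likewise translated when eIF2α is phosphorylated, was the 1 gene called higher at 24 h. At 2 Gy it was measured at 103, 66.3, 74.4 and 64.9 CPM at 6 h and at 137, 116, 224 and 137 CPM at 24 h, so that every library at 24 h was above every library at 6 h. The log2 fold change was 0.98 ± 0.24 (adjusted p = 0.0422). At 0 Gy, with 105, 85.9, 67.5 and 120 CPM at 6 h and 68.2, 49.9, 196 and 99.4 CPM at 24 h, the times overlapped, and replicate 3 at 24 h was the highest of the 8 libraries. The log2 fold change was 0.10 ± 0.38 (adjusted p = 0.899) at 0 Gy and 0.70 ± 0.24 (adjusted p = 0.102) at 0.1 Gy. Without replicate 3, the value at 2 Gy was 0.72 ± 0.20 (adjusted p = 0.103). The call at 2 Gy was kept under 12 of 19 other settings and in 2 of the 8 fits without a single library. Atf5 shares 82 exonic bases with Nup62 on the other strand, and Nup62 had a log2 fold change of -0.35 ± 0.19 at 2 Gy (adjusted p = 0.306).

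**Figure D2:**
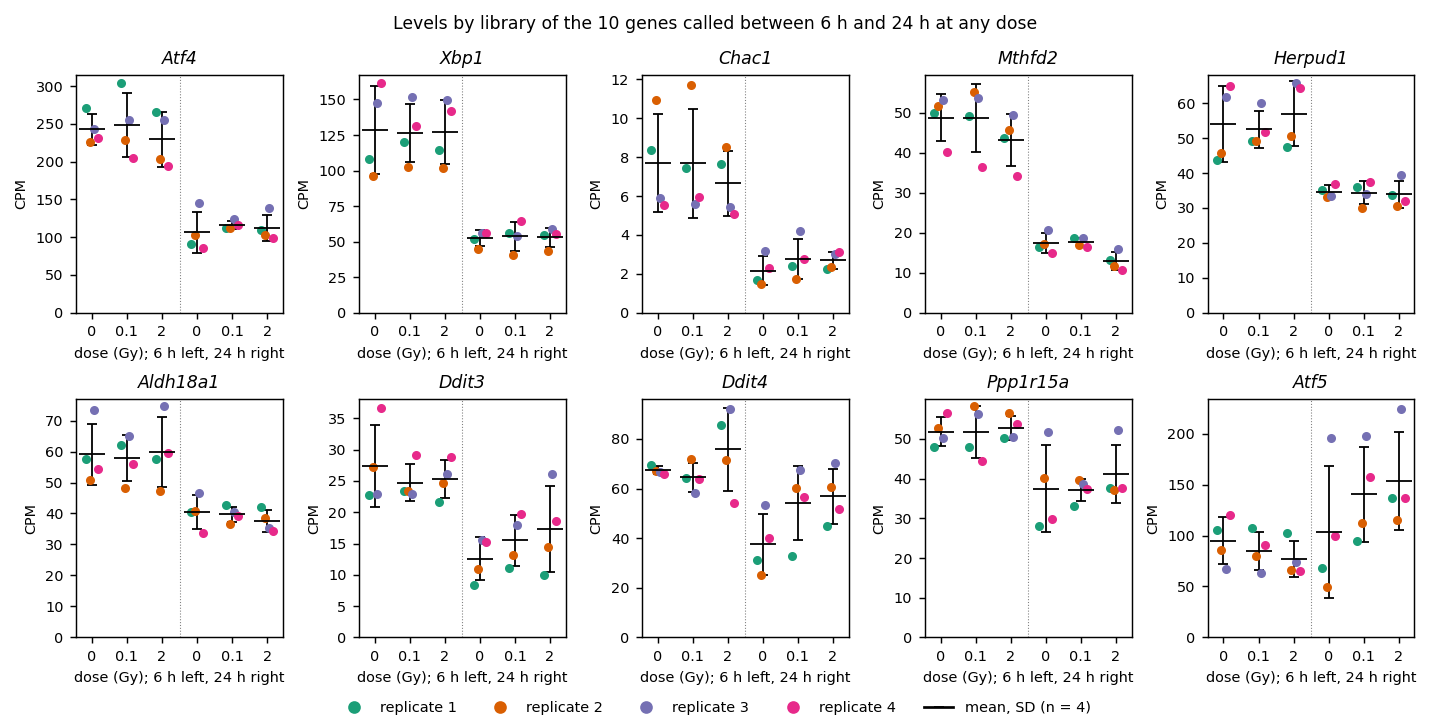
CPM of the 10 genes called at any dose, in each of the 24 libraries, at 0, 0.1 and 2 Gy, with the 6 h groups left and the 24 h groups right of the dotted line. Points are libraries coloured by replicate number and bars the mean with its standard deviation (SD, n = 4); the 24 h points of Atf4, Xbp1, Chac1, Mthfd2 and Herpud1 lie below all 6 h points of their dose, and those of Atf5 above them at 2 Gy.

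Among the feedback and stress effectors, 2 of 5 were called lower at 0 Gy, 2 at 0.1 Gy and 1 at 2 Gy, beside 3.46%, 5.33% and 3.92% of all genes called lower. Chac1 (ENSMUSG00000027313, chr2:119351229-119354381), a classic ATF4 target whose product degrades glutathione, was the only one called at all 3 doses. Its level at 0 Gy was 8.37, 11, 5.92 and 5.53 CPM at 6 h and 1.67, 1.49, 3.16 and 2.30 CPM at 24 h. At 0.1 Gy it was 7.45, 11.7, 5.61 and 5.96 CPM and 2.38, 1.71, 4.19 and 2.77 CPM, and at 2 Gy 7.63, 8.50, 5.43 and 5.07 CPM and 2.25, 2.36, 3.01 and 3.12 CPM. The times did not overlap at any dose. The log2 fold changes of -1.85 ± 0.33, -1.50 ± 0.34 and -1.32 ± 0.25 were called at all doses (adjusted p = 0.0158, 0.0268 and 0.0195). At 0.1 Gy the size rested in part on replicate 2, the highest library at 6 h and the lowest at 24 h, with a log2 fold change of -1.04 ± 0.26 without replicate 2 (adjusted p = 0.0288) and of -1.89 ± 0.34 without replicate 3 (adjusted p = 0.0694). Without replicate 3, the adjusted p at 2 Gy was 0.0513. In the fits without a single library, the call of Chac1 was kept in 5, 4 and 4 of 8 at 0, 0.1 and 2 Gy.

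Ddit4, an inhibitor of mTORC1 signalling, was called at 0 Gy, with 69.6, 67.2, 66.7 and 65.8 CPM at 6 h and 31.4, 25.2, 53.4 and 39.9 CPM at 24 h and a log2 fold change of -0.86 ± 0.21 (adjusted p = 0.0437). The 6 h libraries lay close together, and all 24 h libraries were below them, but the call was kept under 9 of 19 other settings and in 1 of the 8 fits without a single library. At 0.1 and 2 Gy the log2 fold changes were -0.27 ± 0.20 and -0.43 ± 0.20, not called. Ppp1r15a, encoding GADD34, which directs the dephosphorylation of eIF2α, was called at 0.1 Gy, where all 24 h libraries (33.2, 39.5, 38.6 and 37.3 CPM) were below all 6 h libraries (48, 58.3, 56.3 and 44.3 CPM). The log2 fold change was -0.50 ± 0.12 (adjusted p = 0.0381), beside -0.48 ± 0.20 at 0 Gy and -0.37 ± 0.14 at 2 Gy. The call was kept under 8 of 19 other settings and in 2 of the 8 fits without a single library. At 2 Gy 3 of the 4 libraries at 24 h were between 37.2 and 37.6 CPM, and replicate 3 was at 52.2 CPM. Trib3 had values from -0.79 to -0.37, and Nupr1, a stress-induced chromatin protein, from -0.09 to 0.35, none called.

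Of the 9 genes of amino acid synthesis, one-carbon metabolism and transport, 1, 2 and 2 were called at 0, 0.1 and 2 Gy, all lower, where 3.46%, 5.33% and 3.92% of all genes were called lower. Mthfd2 (ENSMUSG00000005667, chr6:83305691-83325908), the mitochondrial enzyme of the folate cycle, fell at each dose. Without irradiation it was at 50, 51.6, 53.4 and 40.2 CPM at 6 h and at 16.4, 17.2, 20.8 and 15 CPM at 24 h. After 0.1 Gy the values were 49.3, 55.3, 53.8 and 36.5 CPM and 18.6, 17, 18.7 and 16.5 CPM, and after 2 Gy 43.8, 45.8, 49.4 and 34.1 CPM and 13.1, 11.7, 16 and 10.7 CPM. The highest library at 24 h was well below the lowest at 6 h at each dose. The log2 fold changes were -1.50 ± 0.15, -1.48 ± 0.15 and -1.76 ± 0.18 (adjusted p = 0.00351, 0.00203 and 0.00317), the smallest adjusted p among the 35 genes at each dose, and the call was kept under all 19 other settings.

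Aldh18a1, which makes the precursor of proline, was lower at 24 h without overlap at all 3 doses, with log2 fold changes of -0.56 ± 0.16 (adjusted p = 0.0622), -0.56 ± 0.12 (adjusted p = 0.0202) and -0.68 ± 0.16 (adjusted p = 0.0405). The call was kept under 14 of 19 other settings at 0.1 Gy and 10 of 19 at 2 Gy, and in 4 and 2 of the 8 fits without a single library. Its levels at 2 Gy were 57.4, 47.4, 74.8 and 59.4 CPM at 6 h and 41.9, 38.7, 35.3 and 34.4 CPM at 24 h. The enzymes of asparagine and serine synthesis did not pass the test at any dose. Asns had log2 fold changes between -0.22 and -0.03, Psat1 between -0.15 and -0.10, Phgdh between -0.25 and 0.22, and Shmt2, the mitochondrial serine hydroxymethyltransferase, between -0.36 and -0.02. Asns, which like Chac1 has a TGATGNAA match, overlapped between the times at every dose, with 31, 40.9, 34.9 and 29.8 CPM at 6 h and 35.1, 35.4, 36.3 and 28.7 CPM at 24 h at 0 Gy.

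The heterodimeric amino acid transporter is encoded by Slc7a5 and Slc3a2. Slc7a5 had log2 fold changes of -0.89 ± 0.37, -0.77 ± 0.38 and -0.85 ± 0.46, with adjusted p-values of 0.172, 0.233 and 0.314. The values differed widely between replicate numbers, as at 2 Gy with 146, 203, 105 and 79.4 CPM at 6 h and 83, 138, 41.6 and 34.2 CPM at 24 h. Replicate 2 was the highest library of all 6 groups, at 127 to 223 CPM against 34.2 to 147 CPM in the other libraries, and each library at 24 h was below its same-numbered library at 6 h at 0.1 and 2 Gy. With the replicate block the adjusted p was 0.00061 at 0.1 Gy and 0.00465 at 2 Gy. Slc3a2 had log2 fold changes between -0.24 and -0.02. Cth, the cystathionine gamma-lyase that makes cysteine, was also highest in replicate 2 in all 6 groups, at 21.9 to 26.4 CPM against 11.9 to 20.2 CPM, and had log2 fold changes from -0.29 to 0.22.

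In edgeR's test, 0 of the 10 ER chaperones and folding enzymes were called at any dose, beside 6.70%, 9.90% and 6.95% of all genes. An unadjusted p under 0.05 was reached by 2, 1 and 1 of the 10 and by 24.7%, 26.5% and 23.2% of all genes. DESeq2 called 1 of the 10 at each dose, beside 6.57%, 8.34% and 7.01% of all genes, namely Creld2 at 0 Gy (adjusted p = 0.0469) and Hspa5 at 0.1 Gy (adjusted p = 0.0268) and 2 Gy (adjusted p = 0.019). The median over the 10 was -0.21, -0.11 and -0.23 on the log2 scale at 0, 0.1 and 2 Gy. Hspa5 (chr2:34771970-34777547), encoding BiP, the chaperone that holds the sensors inactive, had the lowest values at 0.1 and 2 Gy. It was measured at 0 Gy at 672, 1103, 890 and 978 CPM at 6 h and 490, 892, 620 and 499 CPM at 24 h, and at 2 Gy at 709, 1034, 1021 and 1059 CPM and 492, 773, 465 and 546 CPM. The groups overlapped at each dose, and at 0.1 and 2 Gy, where same-numbered libraries deviated together, each library at 24 h was below its same-numbered library at 6 h. The log2 fold changes were -0.55 ± 0.24, -0.59 ± 0.18 and -0.75 ± 0.21, with adjusted p-values of 0.182, 0.071 and 0.0636. With the replicate block Hspa5 was called at 0.1 Gy (-0.60 ± 0.10, adjusted p = 0.00214) and at 2 Gy (-0.77 ± 0.16, adjusted p = 0.0114).

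Creld2, a secreted ER stress marker, had log2 fold changes of -0.69 ± 0.21 at 0 Gy, where the times did not overlap, -0.32 ± 0.15 at 0.1 Gy and -0.42 ± 0.22 at 2 Gy (adjusted p = 0.0831, 0.225 and 0.289). Manf, a secreted survival factor held in the ER, had values from -0.43 to -0.08, and was called at 2 Gy under 1 of 9 other settings that kept all libraries. The abundant lectin chaperones Calr and Canx had values from -0.17 to -0.00 and from -0.26 to 0.14. Hsp90b1, encoding GRP94, ranged from -0.20 to 0.21, the disulfide isomerase Pdia4 from -0.26 to -0.12 and Pdia6 from -0.33 to -0.09. Hyou1, the exchange factor of BiP, lay between -0.19 and -0.12, and Sdf2l1, a cofactor in the ER, between -0.34 and 0.27. Of the 7 genes with an ER stress response element, 0 were called in the fit reported here, beside 6.70%, 9.90% and 6.95% of all genes. Of 9 other settings that kept all libraries, Hspa5 was called under 2, 3 and 4 at 0, 0.1 and 2 Gy and Creld2 under 4, 1 and 1. Hspa5 was also called in edgeR's test at 0.1 and 2 Gy without replicate 2 (adjusted p = 0.0169 and 0.0392). The SE of the log2 fold changes was 0.11 to 0.33 over the 10 chaperones.

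**Figure D3:**
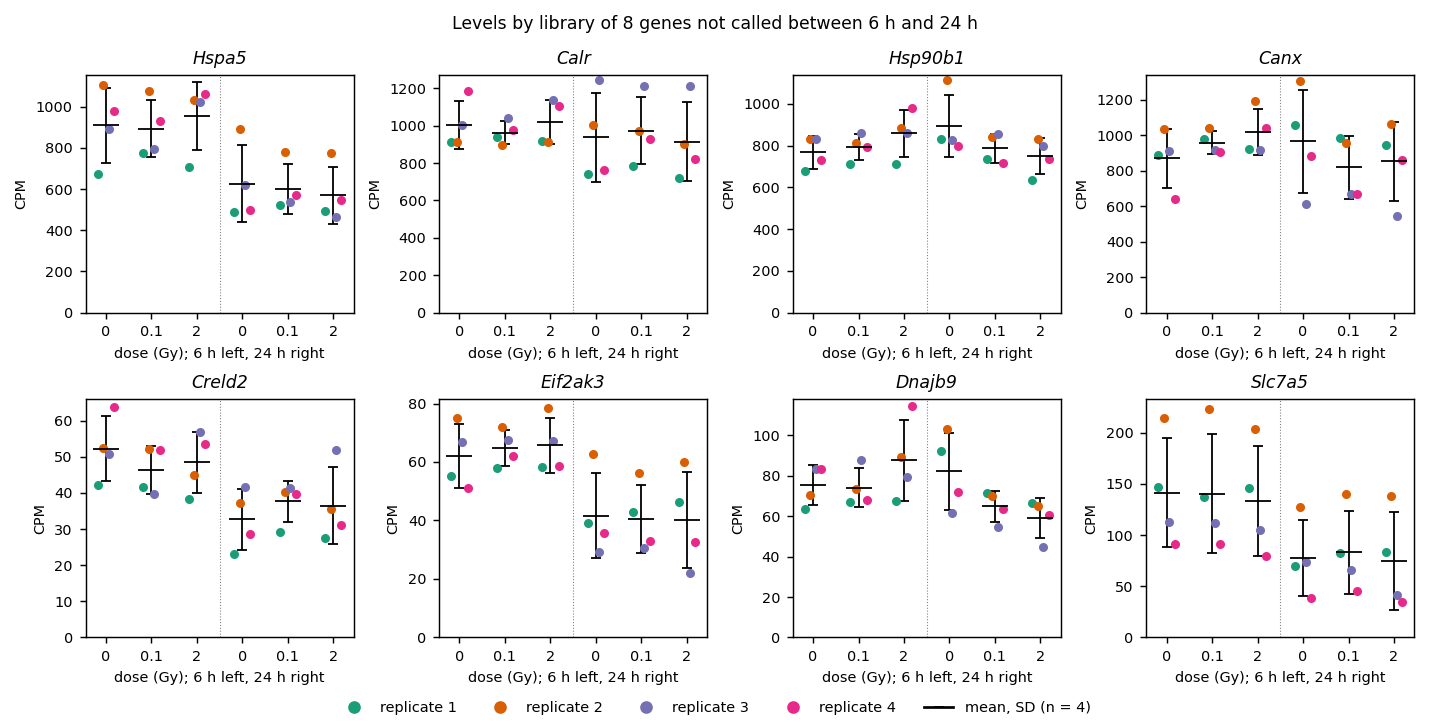
CPM of 8 genes that were not called between 6 h and 24 h, in each of the 24 libraries, laid out as the plot of the called genes, with points coloured by replicate number and bars for the mean and SD (n = 4). Hspa5 and Eif2ak3 lie lower at 24 h within each replicate number at 0.1 and 2 Gy, and Slc7a5 shows replicate 2 (orange) above the other libraries in every group.

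Of the 4 genes of ER co-chaperones and ER-associated degradation, Herpud1 (ENSMUSG00000031770, chr8:94386438-94395377) was called lower at each dose, beside 3.46%, 5.33% and 3.92% of all genes. Without irradiation it was at 43.7, 45.7, 61.8 and 64.9 CPM at 6 h and at 35.2, 33.2, 33.3 and 37 CPM at 24 h. At 0.1 Gy the values were 49.1, 49.1, 60.1 and 51.7 CPM and 36, 30.01, 34 and 37.5 CPM, and at 2 Gy 47.4, 50.6, 65.7 and 64.3 CPM and 33.6, 30.5, 39.3 and 32.1 CPM. The times did not overlap at any dose. The log2 fold changes were -0.65 ± 0.16, -0.63 ± 0.11 and -0.76 ± 0.15 (adjusted p = 0.0428, 0.0131 and 0.0246). At 0 Gy the call was kept under 8 of 19 other settings, the adjusted p being 0.0552 without replicate 2 and 0.0839 without replicate 3. At 2 Gy it was kept in 3 of the 8 fits without a single library, and at 0.1 Gy in 8 of 8. Herpud1 was the only one of the 30 genes with both a TGATGNAA match and the second form of the ER stress response element. Dnajb9, a BiP co-chaperone and XBP1 target, had values of 0.11 ± 0.18, -0.21 ± 0.13 and -0.58 ± 0.20 (adjusted p = 0.114 at 2 Gy). At 2 Gy the times did not overlap, and with the replicate block Dnajb9 was called (-0.57 ± 0.17, adjusted p = 0.0437). Dnajc3, an inhibitor of PERK, lay between -0.16 and 0.09, and Edem1, which routes misfolded glycoproteins to degradation, between -0.23 and -0.06.

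Over the 35 genes, 9, 10 and 8 were lower at 24 h with no overlap between the times at 0, 0.1 and 2 Gy, against 7.44%, 9.38% and 9.36% of all genes tested. At all 3 doses these included the same 6 genes, Atf4, Xbp1, Chac1, Mthfd2, Aldh18a1 and Herpud1. With replicate number as a block, the count of called genes was 12 of 35 at 0.1 Gy and 12 of 35 at 2 Gy, against 25.7% and 19.2% of all genes tested. Without replicate 2, 6, 9 and 8 genes were called at 0, 0.1 and 2 Gy, against 7.44%, 14.4% and 7.33% of all genes tested. Without replicate 3 they were 9, 2 and 4, against 12.8%, 0.519% and 2.74% of all genes, whose number called went from 1064 to 2032 at 0 Gy, from 1609 to 85 at 0.1 Gy and from 1112 to 442 at 2 Gy.

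The other genes of the 2 pathways were 38 genes of ATF4 and the integrated stress response and 44 of the unfolded protein response. Their lists were chosen together with the 35, with earlier results of these data known. Of the 37 tested genes of the first list, 2 were called lower and 1 higher at 0 Gy, 5 lower at 0.1 Gy and 7 lower at 2 Gy. Of the 44 of the second list, 3 were lower and 1 higher at 0 Gy, 5 lower at 0.1 Gy and 3 lower at 2 Gy. Over all genes tested, 6.70%, 9.90% and 6.95% were called at these doses, 3.46%, 5.33% and 3.92% lower. Their median log2 fold changes were -0.16, -0.24 and -0.27 for the first list and -0.08, -0.05 and -0.10 for the second, at 0, 0.1 and 2 Gy. Gdf15, a stress-induced cytokine, was lower at 24 h at each dose, with log2 fold changes of -2.19 ± 0.34, -1.76 ± 0.35 and -1.66 ± 0.37 (adjusted p = 0.00994, 0.0167 and 0.0318). Creb3l1, an ER-bound transcription factor related to ATF6, changed likewise (-1.38 ± 0.19, -1.27 ± 0.18 and -1.49 ± 0.21, adjusted p = 0.00673, 0.00608 and 0.00729). Its relative Creb3l2 was lower at all 3 doses as well (-1.15 ± 0.22, -1.18 ± 0.23 and -1.14 ± 0.28, adjusted p = 0.0198, 0.0168 and 0.0443), and so was the arginine transporter Slc7a1 (-1.24 ± 0.31, -1.44 ± 0.30 and -1.55 ± 0.34, adjusted p = 0.0449, 0.0203 and 0.0301). Syvn1, the ubiquitin ligase of ER-associated degradation, was called at 0 and 0.1 Gy, with -0.66 ± 0.15, -0.60 ± 0.11 and -0.54 ± 0.14 at 0, 0.1 and 2 Gy (adjusted p = 0.0337, 0.0143 and 0.0502). The cysteine tRNA ligase Cars (-0.48 ± 0.15, -0.54 ± 0.13 and -0.64 ± 0.14, adjusted p = 0.0834, 0.0302 and 0.0318) and Tmem50b (-0.44 ± 0.11, -0.52 ± 0.09 and -0.47 ± 0.11, adjusted p = 0.0516, 0.0102 and 0.0352) were called lower at 0.1 and 2 Gy. Eif2ak2, the eIF2α kinase PKR that senses double-stranded RNA, was called higher at 0 Gy, with 1.03 ± 0.19, 0.62 ± 0.23 and 0.49 ± 0.23 at the 3 doses (adjusted p = 0.0198, 0.125 and 0.235), as was Crebrf, a negative regulator of the response, with 1.38 ± 0.26, 0.73 ± 0.28 and 0.77 ± 0.40 (adjusted p = 0.0199, 0.132 and 0.287).

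X-rays, compared with mock-irradiation at the same time, gave no call among the 35 genes in any of the 4 comparisons in the fit without a block. With replicate number as a block, 2 genes were called after 0.1 Gy and 5 after 2 Gy at 24 h (6.84% and 13.2% of all genes), and these are described after the values of the fit without it. At 6 h, log2 fold changes of the 35 genes lay between -0.21 and 0.14 after 0.1 Gy and between -0.30 and 0.31 after 2 Gy, with a median SE of 0.15 and 0.16. At 24 h they lay between -0.35 and 0.52 after 0.1 Gy and between -0.47 and 0.61 after 2 Gy, with a median SE of 0.20 and 0.24. Among all genes the call rate was 0.0% in each of the 4 comparisons, of 16020, 15994, 16183 and 15892 genes tested, and an unadjusted p under 0.05 was reached by 24, 215, 241 and 570 of them and by 0, 0, 0 and 2 of the 35 genes, Ddit4 (unadjusted p = 0.0328) and Mthfd2 (unadjusted p = 0.0492). The number over all genes changed with 1 library, and without replicate 3 of the mock-irradiated cells at 24 h it was 2546 after 0.1 Gy and 1766 after 2 Gy at 24 h, with 0 genes called in either. DESeq2 called 0 of the 35 genes in each as well, and 0, 1, 0 and 93 of all genes. Groups of irradiated and mock-irradiated cells did not overlap for 0 genes after 0.1 Gy at 6 h (0.375% of all genes), for 1 gene, Shmt2, after 2 Gy at 6 h (1.17% of all genes), and for 0 genes at 24 h after 0.1 Gy (1.11%) and 2 Gy (2.95%). Shmt2 was at 41.3, 40.8, 42.1 and 44.6 CPM in mock-irradiated cells and at 39.3, 37.4, 39.5 and 33.5 CPM after 2 Gy at 6 h, a log2 fold change of -0.17 ± 0.09. At each time, both doses were compared with the same mock-irradiated libraries.

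**Figure D4:**
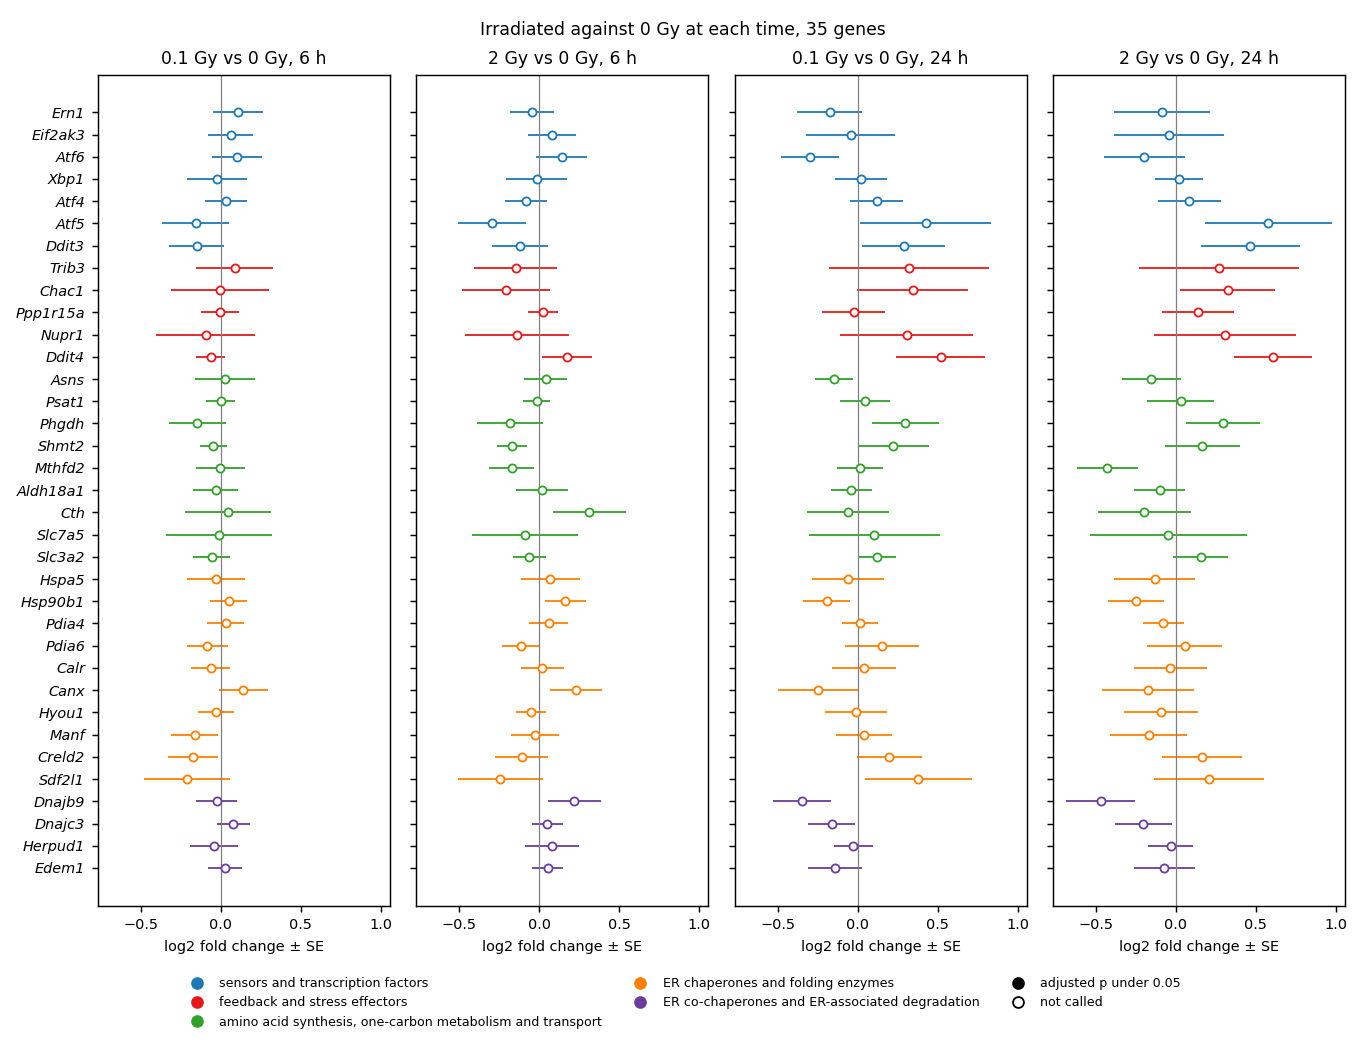
Log2 fold change against mock-irradiated cells of the same time for each of the 35 genes, with its SE (edgeR, 4 against 4 libraries), after 0.1 and 2 Gy at 6 h and at 24 h; colours give the role of the gene. No point is filled, that is, no gene had an adjusted p under 0.05, and the median SE is 0.15 and 0.16 at 6 h and 0.20 and 0.24 at 24 h.

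The genes called at all 3 doses between the times had no call for dose without the block. Mthfd2 had log2 fold changes against mock-irradiation of -0.00 ± 0.15 and -0.17 ± 0.14 at 6 h and 0.02 ± 0.14 and -0.43 ± 0.19 at 24 h, for 0.1 and 2 Gy. Atf4 had log2 fold changes against mock-irradiation of 0.03 ± 0.13 and -0.08 ± 0.13 at 6 h and 0.12 ± 0.17 and 0.08 ± 0.20 at 24 h, for 0.1 and 2 Gy. For Xbp1 the values were -0.02 ± 0.19 and -0.02 ± 0.19 at 6 h and 0.02 ± 0.16 and 0.02 ± 0.15 at 24 h. Chac1 had -0.00 ± 0.31 and -0.21 ± 0.27 at 6 h and 0.34 ± 0.35 and 0.32 ± 0.30 at 24 h. Differences of the size of these SE were not detectable with 4 libraries a group. Herpud1 had -0.04 ± 0.15 and 0.08 ± 0.17 at 6 h and -0.03 ± 0.12 and -0.03 ± 0.14 at 24 h.

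Same-numbered libraries of one time point deviated together, and with replicate number as a block some genes were called at 24 h, although none was at 6 h. The 2 and 5 of 35 genes stand beside 6.84% and 13.2% of all genes, so that their number is close to that among all genes. Atf5 was at 68.2, 49.9, 196 and 99.4 CPM in mock-irradiated cells at 24 h, at 94.3, 112, 198 and 158 CPM after 0.1 Gy and at 137, 116, 224 and 137 CPM after 2 Gy. The groups overlapped, but in 4 of 4 replicate numbers the irradiated library was higher, and the blocked log2 fold change was 0.56 ± 0.14 (adjusted p = 0.0374) after 0.1 Gy and 0.72 ± 0.16 (adjusted p = 0.0268) after 2 Gy. Dnajb9 was lower in 4 of 4 replicate numbers at both doses, at 92.1, 103, 61.5 and 71.9 CPM in mock-irradiated cells, 71.3, 69.9, 54.7 and 63.8 CPM after 0.1 Gy and 66.3, 64.8, 44.7 and 60.7 CPM after 2 Gy. Its blocked values were -0.33 ± 0.09 (adjusted p = 0.0481) and -0.46 ± 0.10 (adjusted p = 0.022). These 2 comparisons share the mock-irradiated libraries.

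The other 3 blocked calls were after 2 Gy at 24 h. Mthfd2 was lower in 4 of 4 replicate numbers, at 16.4, 17.2, 20.8 and 15 CPM in mock-irradiated and 13.1, 11.7, 16 and 10.7 CPM in irradiated cells, a blocked log2 fold change of -0.44 ± 0.10 (adjusted p = 0.0286). Ddit4 was higher in 4 of 4, at 31.4, 25.2, 53.4 and 39.9 CPM and 44.9, 60.5, 70.3 and 51.6 CPM (0.64 ± 0.15, adjusted p = 0.0288), and so was Ddit3, at 8.43, 11, 15.5 and 15.3 CPM and 10.01, 14.4, 26.2 and 18.7 CPM (0.43 ± 0.12, adjusted p = 0.0439). With GC content and gene length in the same fit as the block, Ddit3 (adjusted p = 0.033) and Mthfd2 (adjusted p = 0.0321) kept their calls, whereas Atf5 (adjusted p = 0.163), Ddit4 (adjusted p = 0.189) and Dnajb9 (adjusted p = 0.101) did not, and no gene was called after 0.1 Gy (Atf5, adjusted p = 0.125; Dnajb9, adjusted p = 0.207).

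Whether the change from 6 h to 24 h itself depended on dose was tested as an interaction of dose and time. Of the 35 genes, 0 were called for 0.1 Gy and 0 for 2 Gy, as were 0.0% of the 17040 and 16866 genes tested, while DESeq2 called 0 of the 35 in both and 0 and 7 of all genes. An unadjusted p under 0.05 was reached by 0 and 1 of the 35 genes and by 431 and 827 of all genes, the latter being 2882 and 2664 without replicate 3 of the mock-irradiated cells at 24 h, again with 0 called. The log2 differences, the change at the dose minus the change at 0 Gy, lay between -0.39 and 0.61 for 0.1 Gy and between -0.68 and 0.88 for 2 Gy. With replicate number as a block, 0 of the 35 and 0 of all genes were called for either dose in edgeR's test, with an unadjusted p under 0.05 in 1656 and 2220 of all genes. With each replicate number at each time as its own block, a setting added after the data had been seen, 5 genes were called for 0.1 Gy, against 8.87% of all genes, and 3 for 2 Gy, against 6.78%. Atf5 was called for both doses, with log2 differences of 0.72 ± 0.18 (adjusted p = 0.0309) and 1.01 ± 0.25 (adjusted p = 0.0405), and Dnajb9 for 2 Gy with -0.65 ± 0.14 (adjusted p = 0.0376). For Atf4 the log2 differences without a block were 0.10 ± 0.22 and 0.17 ± 0.24, for Xbp1 0.06 ± 0.25 and 0.04 ± 0.25, and for Chac1 0.36 ± 0.48 and 0.54 ± 0.40, for 0.1 and 2 Gy.

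The balance of the design allowed the variation of each gene over the 24 libraries to be divided, as shares of the sum of squares of its log2 CPM. Time took a median of 23.0% over the 35 genes and up to 91% for Mthfd2, with 88.9% for Xbp1, 88.5% for Atf4, 79.5% for Herpud1 and 78.5% for Chac1. Replicate number took a median of 29.3% and dose 1.28%, with the highest share of dose, 13.2%, in Ddit4. Replicate number was the largest of the 6 shares for 16 genes and time for 13. Nupr1 and Cth were at the far end, with 83.8% and 80.9% for replicate number. Nupr1 was lowest in replicate 2 in all 6 groups, at 10.9 to 13.2 CPM against 15.4 to 48.1 CPM in the other 18 libraries. In all 6 groups, Xbp1 was likewise lowest in replicate 2, and Eif2ak3, Slc7a5 and Cth were highest in it. The microglial markers were low in the same replicate 2 libraries, and the part of microglial cells in these levels was not tested. The ER chaperones had a median of 13.8% for time and 42.9% for replicate number, and the sensors and transcription factors 52.6% and 22.6%.

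**Figure D5:**
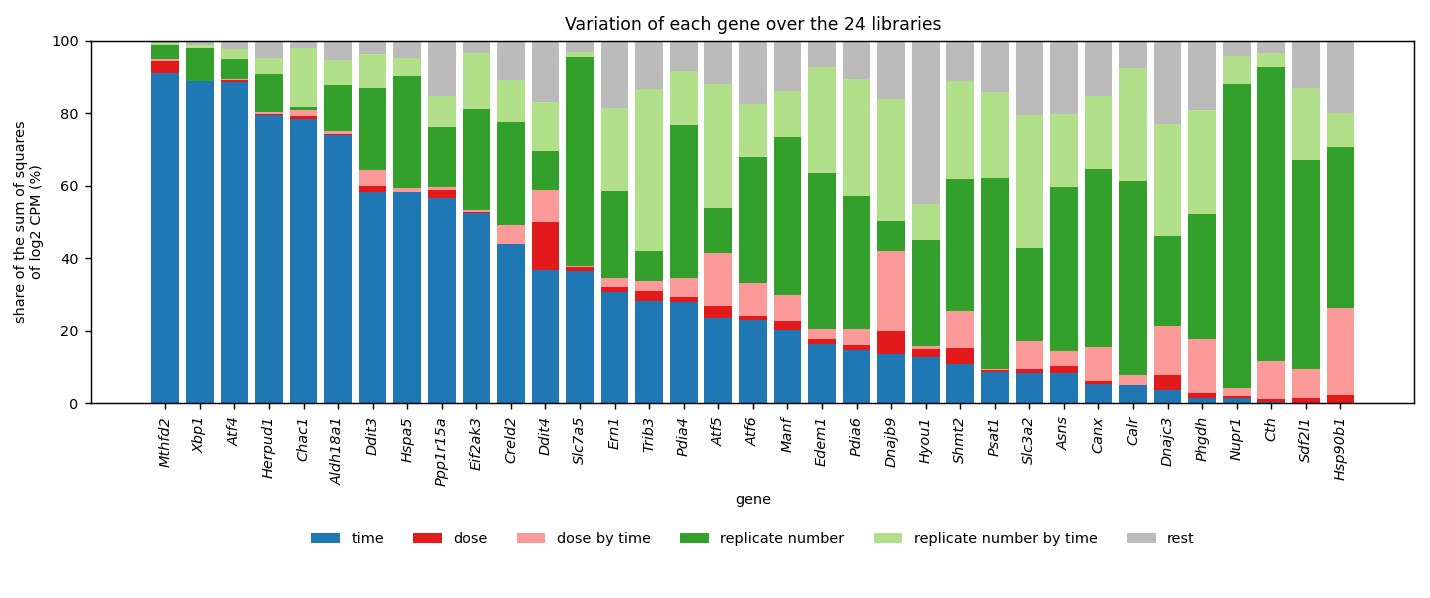
Share of the sum of squares of log2 CPM over the 24 libraries, in percent, for time, dose, dose by time, replicate number, replicate number by time and the rest, for each of the 35 genes in order of the share of time. Time takes most of the bar from Mthfd2 to Eif2ak3 on the left, and replicate number most of it for Nupr1 and Cth on the right, while dose (red) takes at most 13.2%, in Ddit4.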

How the data were processed

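The authors deposited 1 table of raw counts per gene for each of the 24 libraries, made from poly(A)-selected RNA sequenced as paired reads of 150 bases; a company trimmed and mapped the reads to build mm10, and the aligner, the counting tool and the use of strand are not given in the sources used here. Replicates were not pooled by the authors. Gene identifiers were matched to the GENCODE release of GRCm38 for names and positions (49056 of 49315), and 44858 of these had the same start and end in the count tables.

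Genes were filtered with filterByExpr, scaled by TMM and tested with edgeR's quasi-likelihood test (edgeR 4.0.16, R 4.3.3), each comparison on its own groups, with Benjamini-Hochberg adjustment over all genes that passed the filter. SE is the standard error of the log2 fold change, calculated as its absolute value divided by the square root of the F statistic of edgeR's test. Alternatives were DESeq2 1.42.0, other scalings and filters, a fit over all 24 libraries, a replicate block, a correction for GC content and length, and fits with libraries left out. The fits were tested on simulated data first. Same-numbered libraries deviated together in every comparison except 24 h against 6 h at 0 Gy, with correlations of their deviations from the group means of at least 0.246. Between the times at 0.1 Gy, replicate 3 correlated slightly less with its own number (0.379) than with another (0.395). In the comparisons other than that at 0 Gy, blocked values stand beside the results where they changed a call. All 36 pairs of libraries within a group differed beyond sampling noise (chi-square per degree of freedom of at least 28.3). Libraries held 14742855 to 38194800 counts.

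The 35 genes, the other lists and the promoter motifs were chosen with earlier results of these data known. Every member of the 35 was open to naming, whereas other pathway genes were named by rank of adjusted p, up to 5 higher and 5 lower per comparison of times, and then given at all 3 doses. Overlapping genes were listed from the annotation, since reads there cannot be told apart without strand. Besides those named in the text, Manf shares 146 exonic bases with Dcaf1 on the other strand and 14 with Rbm15b on its own strand. On the other strand, Eif2ak3 shares 485 with Gm43292, Hsp90b1 415 with 1810014B01Rik and Manf 166 with 4930524O07Rik, and apart from Mars, Nup62, Dcaf1 and Rbm15b no overlapping gene had more than 2014 counts, summed over the 24 libraries.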

Additional observations from a re-analysis of the deposited data

Results flagged for a closer look

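In 13 of 210 group levels of the 35 genes, 1 library lay apart from the other 3 by Dixon's ratio, which chance alone gives in about 5% of groups. Replicate 3 at 24 h gave 4 of these, with Ern1 at 18.84 CPM at 0 Gy (other libraries 27.58 to 28.31 CPM), Phgdh at 95.63 CPM at 0 Gy (53.9 to 60.72 CPM), Trib3 at 4.662 CPM at 2 Gy (1.65 to 2.111 CPM) and Ppp1r15a at 52.23 CPM at 2 Gy (37.19 to 37.65 CPM). Replicate 2, the one with few microglial transcripts, gave 4 more, all above the others, with Cth at 22.66 CPM at 0 Gy and 6 h (12.59 to 14.07 CPM), Phgdh at 92.47 CPM at 0.1 Gy and 6 h (61.88 to 64.93 CPM), Asns at 41.82 CPM at 2 Gy and 6 h (32.07 to 33.38 CPM) and Hsp90b1 at 1117 CPM at 0 Gy and 24 h (800.6 to 830.7 CPM). Replicate 1 was low for Hspa5 (708.7 CPM against 1021 to 1059 CPM) and Manf (123.5 CPM against 167.6 to 176.1 CPM) at 2 Gy and 6 h and for Creld2 at 0.1 Gy and 24 h (29.29 CPM against 39.79 to 41.35 CPM). Replicate 4 was low for Asns at 0 Gy and 24 h (28.67 CPM against 35.09 to 36.32 CPM) and high for Ddit3 at 0.1 Gy and 6 h (29.07 CPM against 22.96 to 23.44 CPM).

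For 8 pairs of gene and dose, the interaction of dose and time was called in edgeR's quasi-likelihood test with each replicate number at each time as a block, 5 of 35 genes for 0.1 Gy and 3 for 2 Gy, beside 8.87% and 6.78% of all genes in the same fits. This block was added after the data had been seen, and neither the test without it nor the one with replicate number alone as a block called any of them. For 0.1 Gy, the log2 difference in change was 0.7185 ± 0.18 (SE, adjusted p = 0.0309) for Atf5, 0.5905 ± 0.15 (adjusted p = 0.0319) for Sdf2l1, 0.4783 ± 0.14 (adjusted p = 0.0418) for Phgdh, 0.4345 ± 0.13 (adjusted p = 0.0485) for Ddit3 and -0.4044 ± 0.12 (adjusted p = 0.0409) for Atf6. For 2 Gy it was 1.013 ± 0.25 (adjusted p = 0.0405) for Atf5, -0.501 ± 0.13 (adjusted p = 0.0433) for Cth and -0.6531 ± 0.14 (adjusted p = 0.0376) for Dnajb9. The interactions for 0.1 and 2 Gy share the mock-irradiated libraries.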

How the results depend on the processing

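At 0, 0.1 and 2 Gy, 7, 7 and 7 of the 35 genes were called between 6 h and 24 h. With the replicate block, 13, 12 and 12 genes were called (15.3%, 25.7% and 19.2% of all genes), and 13, 16 and 16 with the block, GC content and length together (26.6%, 36.1% and 28.7% of all genes). At 0 Gy the lowest correlation between same-numbered libraries was 0.0887, so the numbers were not taken as pairs there, and replicates 3 and 4 did not correlate best with their own number. Replicate 3 at 0.1 Gy did not either (0.379 against 0.395), although the numbers were taken as pairs at that dose. A log2 fold change of at least 1 in addition left 4 genes at 0.1 Gy and 4 at 2 Gy, and 624 and 577 of all genes. Without replicate 3, 2 and 4 genes were called at these doses, a setting added after the data had been seen, and leaving out single libraries gave 3 to 12, 4 to 9 and 3 to 9 genes at the 3 doses, beside 170 to 2999, 534 to 1890 and 220 to 1855 of all genes. Among all genes, DESeq2 called 1969, 2535 and 2108 genes where edgeR called 1064, 1609 and 1112. Of 399 repeats of the 21 calls under other settings, 320 kept the call, 79 lost it and 0 changed direction. For dose, the replicate block gave 2 calls after 0.1 Gy and 5 after 2 Gy at 24 h (2 after 2 Gy with GC content and length, where 3.51% of all genes were called) where there were 0. With the block within time, the interactions gave 5 and 3 calls, where there were 0. Leaving out single libraries gave 0 calls in each comparison of doses and each interaction. The cause of these shifts was not tested. No other setting moved the count of called genes among the 35 by over 1.5 times.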
